A study of Mus musculus with 21 samples.

Results

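The expression of 10 genes that take up, activate, inactivate or compete with the deoxycytidine analogue decitabine was followed in murine pancreatic ductal adenocarcinoma (PDAC) cells before, during and after resistance to a MEK inhibitor. The genes were chosen by name for their role in nucleoside metabolism, with earlier results of these data known. They are the transporters Slc29a1 and Slc29a2, the kinases Dck and Tk1, the deaminases Cda and Dctd and the triphosphate hydrolase Samhd1. The others are the ribonucleotide reductase subunits Rrm1 and Rrm2, and thymidylate synthase, Tyms. All 10 were found among the 34478 genes of the table and passed the filter on low values, as did 19300 genes in all. The 6 primary cell lines (#3, #4, #6, #7, #9 and #10) had been derived from tumors of genetically engineered mice, in which a Cre expressed from the Ptf1a locus in the pancreatic lineage (Ptf1awt/Cre) deletes Trp53 (Trp53loxP/loxP). Every line carried these alleles and was sequenced once in each state it has, so the lines are the replicates and p-values measure the spread between lines. Parental cells (n = 6) were untreated. Resistant cells (n = 6) were kept in trametinib at 100 times the IC50 of their line, and whole-genome sequencing of lines #3 and #9, not analysed here, had been read as outgrowth of a single clone. In comparisons of these lines with parental cells, effects of the drug and of the choice of that clone cannot be told apart. The study reported that, of the variants found only in resistant cells that could be checked, nearly all persisted at P12, at similar allele fractions. For the other lines no such sequencing is described. Cells taken from resistant cultures and kept in drug-free medium form the states P5 (n = 3, lines #3, #7 and #9) and P12 (n = 6). P5 is named for 5 and P12 for 12 passages, but the description of P5 in lines #7 and #9 gives 12 passages. None of these samples is labelled as treated with decitabine.

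Decitabine enters cells largely through equilibrative nucleoside transporters, of which the Slc29a1 product ENT1 is the best known, and is trapped by deoxycytidine kinase, encoded by Dck. Further kinases make the triphosphate, which is built into DNA during S phase and captures DNA methyltransferases there. Cytidine deaminase, encoded by Cda, turns the free nucleoside into an inactive uridine compound, Dctd deaminates the monophosphate and Samhd1 splits the triphosphate. Ribonucleotide reductase, thymidylate synthase and thymidine kinase supply the natural deoxynucleotides that share these routes, and their RNAs are known to rise in cycling cells.

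Upstream sequences are shown for Cda, the member with the widest spread of log2 values, and for Rrm1 and Rrm2, which encode the large and the small subunit of the same enzyme and whose RNA levels are set side by side. They are from RefSeq, build GRCm38.p6, which has the coordinates of the mm10 build named in the submitters' processing notes, and each is given 5′ to 3′ along the gene. Positions are counted back from the RefSeq start of the gene, with -1 the last base before it, and bases that GENCODE M21 puts inside the gene were cut off. Capitals mark a CCAAT box (CCAAT or ATTGG) or a GC box (GGGCGG or CCGCCC).
Cda (chr4:138367993-138368205, minus strand, -250 to -38): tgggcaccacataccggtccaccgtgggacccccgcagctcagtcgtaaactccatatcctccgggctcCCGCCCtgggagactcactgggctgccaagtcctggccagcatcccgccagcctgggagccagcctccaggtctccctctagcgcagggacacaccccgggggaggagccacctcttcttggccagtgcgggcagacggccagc
Rrm1 (chr7:102441445-102441694, plus strand, -250 to -1): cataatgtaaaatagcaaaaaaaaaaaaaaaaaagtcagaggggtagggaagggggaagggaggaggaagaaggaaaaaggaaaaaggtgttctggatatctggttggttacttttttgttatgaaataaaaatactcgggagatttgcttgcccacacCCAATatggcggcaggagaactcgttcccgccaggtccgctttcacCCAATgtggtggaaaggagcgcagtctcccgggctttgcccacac
Rrm2 (chr12:24708004-24708240, plus strand, -250 to -14): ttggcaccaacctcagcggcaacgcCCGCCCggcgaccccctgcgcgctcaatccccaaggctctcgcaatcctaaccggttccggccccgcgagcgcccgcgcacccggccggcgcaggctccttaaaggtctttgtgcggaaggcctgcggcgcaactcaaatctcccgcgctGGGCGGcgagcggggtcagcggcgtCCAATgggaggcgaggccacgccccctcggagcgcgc
The Cda stretch held 1 GC box, at -181, and no CCAAT box. Rrm1 held 2 CCAAT boxes, at -91 and -45, and no GC box, whereas Rrm2 held 1 CCAAT box, at -50, and 2 GC boxes, at -225 and -75. Of 32851 RefSeq windows of 250 bases, 33.8% held a CCAAT box and 32.7% a GC box on either strand. The AP1 motif TGANTCA, present in 6.75% of all windows, and the E2F spellings TTTGGCGC, TTTCCCGC, TTTGCCGC and TTTCGCGC, of which 1.86% of windows held any, were in no window of the 10 members. These matches describe letters and are not binding sites. The Rrm2 stretch had a GC content of 72.6% with 33 CpG sites and the Cda stretch 68.5% with 11, against 46.0% with 7 CpG sites for Rrm1 and a median of 52.4% with 6 over all windows. The Rrm2 and Cda stretches, of 237 and 213 bases, are shorter than the windows of 250 bases. Their full windows held 34 and 14 CpG sites.

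Values are DESeq2-normalized gene counts. A sample's values summed to 28.58 to 37.12 M (M for mega), which corresponds to an estimated 24.1 to 42.7 M reads, and 3 reads amounted to 2.31 to 4.07 normalized counts, a floor that covers counting error only. Of 8 epithelial markers, Epcam was at 3.61 or less in all samples, so this defining marker was absent, while keratin 18 ranged from 79.3 to 86547. Of the leukocyte markers, Ptprc ranged from 3.02 to 20.01 and Cd3e stayed at or below 4.60, whereas Cd68 ranged from 118 to 404 and Csf1r from 2.67 to 2530. Trp53 lay between 178 and 475 in all 21 samples, a value over the whole gene that does not check the deleted exons.

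Resistant and parental cells were compared first, to describe the nucleoside genes in the state that tolerates MEK inhibition. Cda and Tk1 were called lower in resistant cells, and no member was called higher. Calls required a Benjamini-Hochberg adjusted p under 0.01 over 19300 genes in limma together with a log2 difference beyond 1 in size, and 2 of 10 members were called, where 5.3% of all genes tested were called and 2.73% were called lower. With the cell line as a block the same 2 members were called, where 10.5% of all genes were. The median log2 fold change of the 10 members was -0.84, against -0.0049 for all genes tested, and 7 of 10 lay below 0. In bulk RNA, fewer cells with a transcript and less transcript per cell cannot be told apart.

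Cda, which inactivates cytidine analogues, had the largest fold change of the members. Its normalized counts in parental cells were 56.7 (#3), 287 (#4), 228 (#6), 107 (#7), 128 (#9) and 109 (#10). Resistant cells held 5.09 in #3, 6.64 in #4, 1.46 in #6, 31.9 in #7, 27.2 in #9 and 5.21 in #10. Every resistant value lay below every parental one, and the value of line #6 was under its floor of 3.59. Those of #3, #4 and #10 lay little above floors of 3.1, 4.07 and 2.66, so folds in these lines are imprecise. Values of 3.16% of all genes tested were lower in resistant than in parental cells without overlap. Within lines, Cda was 3.35-fold lower in #7, 4.73-fold in #9, 11.1-fold in #3 and 43.3-fold in #4, with #10 in between, and 63.5-fold lower in #6 with the resistant value raised to the floor. The log2 fold change was -3.85 ± 0.66 (SE; limma, adjusted p = 0.000784, lower in 6 of 6 lines), and of 17 alternatives it missed the threshold in 1, a fit of these 2 states alone with the block (adjusted p = 0.0103). The drop was smallest in lines #7 and #9, which kept the highest Cda levels under the drug.

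Slc29a1, the main uptake route, split the lines. Parental values were 5217 (#3), 10672 (#4), 8872 (#6), 3712 (#7), 8906 (#9) and 6467 (#10) normalized counts. The resistant values were 1821 in #3, 750 in #4, 991 in #6, 5058 in #7, 10406 in #9 and 2530 in #10. Lines #3, #4, #6 and #10 were thus lower than their parents, by 2.86-, 14.2-, 8.96- and 2.56-fold, while #7 and #9 were 1.36- and 1.17-fold higher. Over all lines the log2 fold change of -1.53 ± 0.48 missed the threshold (SE; limma, adjusted p = 0.0369), and without line #9 it passed at -1.88 (adjusted p = 0.00934). The second transporter, Slc29a2, ranged from 232 to 815 with a median of 507 in resistant cells, against 675 to 1156 with a median of 834 in parental cells. Its log2 fold change was -0.85 (limma, adjusted p = 0.0727). Lines #4, #6 and #3, with 4.98-, 3.01- and 2.18-fold lower values, were again those with the lower levels, and #9 and #10 were slightly above their parents.

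**Figure D1:**
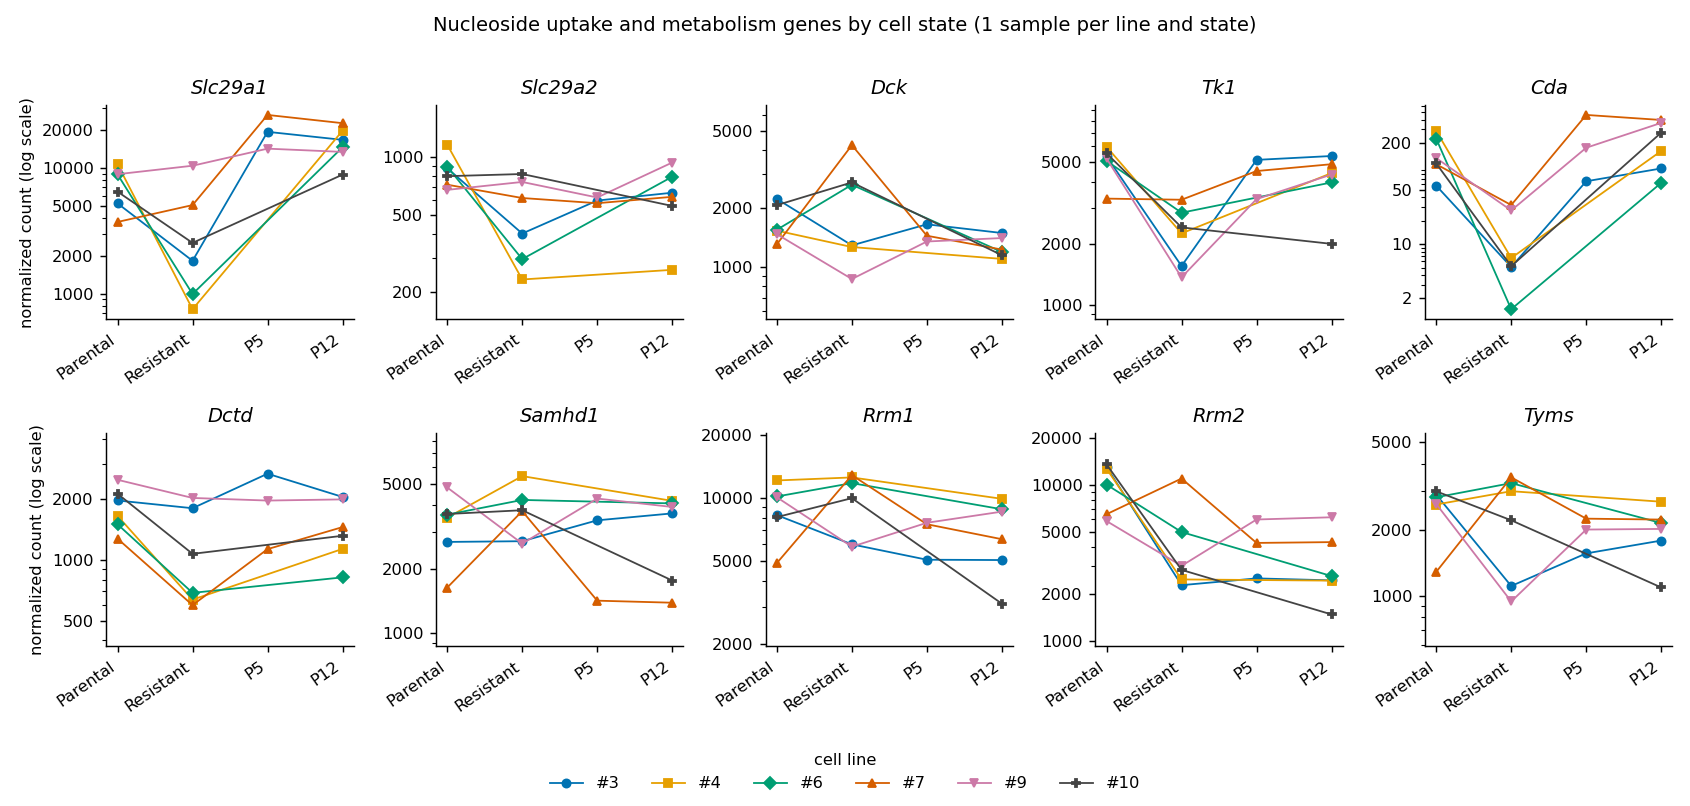
Normalized counts of the 10 genes (y axis, log scale, a separate range per panel) in parental, resistant, P5 and P12 cells, with 1 point per line and state and points of a line joined. Cda values in the 6 resistant samples, 1.46 to 31.9, all lie below the parental values, 56.7 to 287, while Slc29a1 in P12, 8839 to 22703, lies above the parental value of each line.

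Both kinases were next compared, since the activation of the analogue depends on Dck. Dck had a lowest, median and highest value of 1312, 1548 and 2237 in parental and of 871, 1970 and 4216 in resistant cells. It was higher in resistant cells of 3 lines (#6, #7 and #10) and lower in the other 3, with a log2 fold change of 0.17 ± 0.28 (SE; limma, adjusted p = 0.747). Tk1, which phosphorylates thymidine, had 5351 (#3), 5968 (#4), 5089 (#6), 3323 (#7), 5230 (#9) and 5545 (#10) normalized counts in parental cells. Resistant cells held 1551 in #3, 2243 in #4, 2833 in #6, 3281 in #7, 1365 in #9 and 2401 in #10. The groups did not overlap, but line #7 accounted for both the lowest parental and the highest resistant value and was nearly level. The log2 fold change of Tk1 was -1.20 ± 0.24 (SE; limma, adjusted p = 0.00284, lower in 6 of 6 lines). This call was lost when line #3, #4, #6 or #9 was left out (adjusted p = 0.0228, 0.0194, 0.0122 and 0.0128, log2 fold changes of -1.05 to -1.27), or when the 2 states were fitted alone with the block (adjusted p = 0.02).

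Of the other inactivating enzymes, Dctd was lower in resistant cells of every line, as were Cda and Tk1, making 3 of 10 members where 9.49% of all genes tested were lower in 6 of 6 lines. Its lowest, median and highest values were 1277, 1817 and 2503 in parental and 598, 881 and 2034 in resistant cells. The log2 fold change of -0.84 ± 0.32 did not pass (SE; limma, adjusted p = 0.0862), and blocking on the cell line gave an adjusted p of 0.00476 but the fold stayed under the threshold. Lines #3 and #9 were only 1.09- and 1.23-fold lower, the remaining lines 1.99- to 2.60-fold. Samhd1 had medians of 3547 in parental and 3762 in resistant cells, with overlapping ranges of 1641 to 4830 and 2637 to 5462. Its log2 fold change was 0.21 (limma, adjusted p = 0.723).

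Genes of deoxynucleotide supply were described next. Rrm2, the small subunit of ribonucleotide reductase, had 12980 (#3), 12652 (#4), 10007 (#6), 6467 (#7), 5843 (#9) and 13488 (#10) normalized counts in parental cells. Resistant cells held 2269 in #3, 2469 in #4, 4970 in #6, 10948 in #7, 3018 in #9 and 2842 in #10. Rrm2 was lower in 5 of 6 lines, by 1.94- to 5.72-fold, and 1.69-fold higher in #7. Over all lines its log2 fold change was -1.39 ± 0.39 (SE; limma, adjusted p = 0.0208), which missed the threshold, and it passed without line #7 (-1.82, adjusted p = 0.00388). Rrm1, the large subunit, had medians of 9157 in parental and 10858 in resistant cells with a log2 fold change of 0.12 ± 0.29 (SE; limma, adjusted p = 0.829). Tyms, which makes thymidylate, had medians of 2717 and 2604 and a log2 fold change of -0.24 (limma, adjusted p = 0.668), with lines #3 and #9 at 2.61- and 2.78-fold lower and #7 at 2.70-fold higher.

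Line #7 had the highest resistant minus parental difference of 8 of 10 members, all but Dctd and Slc29a2. The share of all genes tested with their highest difference in #7 was not determined. A list of 22 S-phase and proliferation genes also had its highest mean difference in #7. The mean log2 difference of that list was 1.02 in #7, with 22 of 22 genes higher, and -0.10 (#6), -0.44 (#4), -0.50 (#10), -0.65 (#3) and -1.09 (#9) in the others. In #7, Rrm1, Rrm2 and Tyms were at 1.40, 0.76 and 1.43, Samhd1 at 1.19 and Slc29a1 at 0.45. Rrm1 and Tyms had their lowest difference in #9, at -0.79 and -1.47, and so did Tk1 at -1.94 and Samhd1 at -0.87, where the list was also lowest. Other members went the other way: Slc29a2 had its highest difference in #9, at 0.14. Cda, Dctd, Slc29a1 and Rrm2, at -2.20, -0.30, 0.22 and -0.95 in #9, were lower in most other lines. Dck was highest in #7 as well, at 1.68, and lowest in #3 and #9, at -0.79 and -0.76. Mki67, a gene of the list, had medians of 21200, 14984 and 13372 normalized counts in parental, resistant and P12 cells. The part of proliferation in these differences was not tested. Over all lines, 0 of 22 list genes were called, with a median log2 fold change of -0.32. Other lists moved with the same contrast: of 7 tested epithelial markers, 2 were called lower (Muc1 and Sox9; 5 with the cell line as a block), with summed values of 18440 to 294804 in parental and 1821 to 210821 in resistant cells, and of 7 tested fibroblast and stellate cell markers, 1 was called higher (Dcn; 2 with the block), with summed values of 100 to 11403 and 1943 to 512567. Of the tested leukocyte, endothelial, and acinar and islet markers, 0 of 4, 1 of 5 (Tek, higher) and 0 of 2 were called. Summed values of the leukocyte markers were 141 to 277.5 in parental and 207 to 2901 in resistant cells, those of the endothelial markers 41.7 to 168 and 22.5 to 2756, and those of the acinar and islet markers 43.6 to 279 and 2.03 to 528. The part of these lists in the members' values was not tested.

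**Figure D2:**
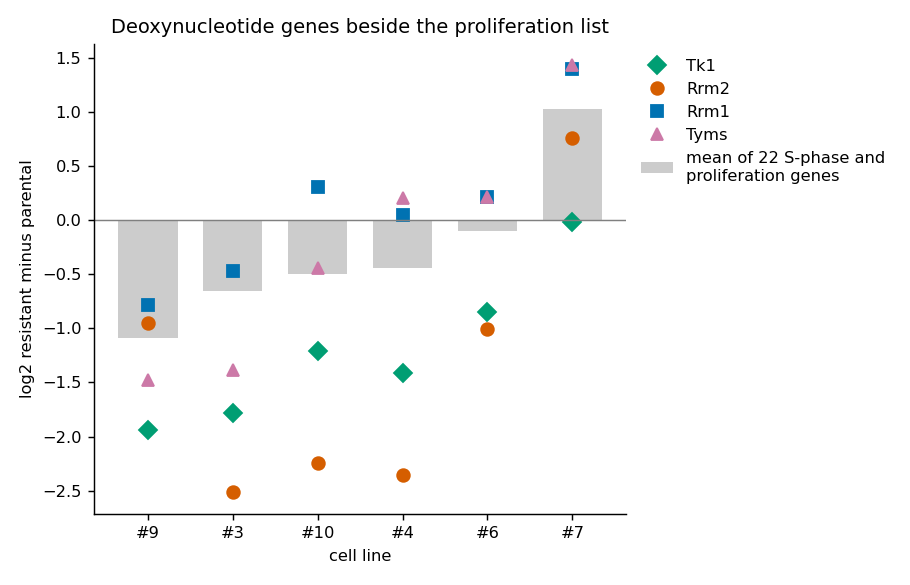
Log2 difference of resistant minus parental cells (y axis) in each cell line (x axis, ordered by the list mean) for the mean of 22 S-phase and proliferation genes (bars) and for Tk1, Rrm2, Rrm1 and Tyms (symbols). The list mean runs from -1.09 in #9 to 1.02 in #7, and in lines #3, #4 and #10 Rrm2, at -2.25 to -2.52, lies far below Rrm1, at -0.47 to 0.30.

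P12 cells were then compared with resistant cells, to follow the genes after the drug was withdrawn. Cda and Slc29a1 were called higher, and no member was called lower. This is 2 of 10 members called, both higher, where 2.13% of all genes tested were called and 1.28% were called higher, and the same 2 with the cell line as a block, where 4.52% of all genes were. The members' median log2 fold change was 0.12, against 0.022 for all genes tested, and 5 of 10 lay above 0.

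Cda in P12 cells was at 94.4 (#3), 159 (#4), 61.6 (#6), 397 (#7), 364 (#9) and 273 (#10) normalized counts, above every resistant value. Values of 1.39% of all genes tested were higher in P12 than in resistant cells without overlap. Its log2 fold change was 4.30 ± 0.66 (SE; limma, adjusted p = 0.000693, higher in 6 of 6 lines). Folds within lines ran from 12.4 in #7 to 52.4 in #10, whose resistant value was little above its floor. The rise was more even across lines than the preceding drop, with an SD of the log2 differences of 0.70 against 1.84, or 1.596 with line #6 at its floor. Slc29a1 reached 16722 in #3, 19767 in #4, 14599 in #6, 22703 in #7, 13409 in #9 and 8839 in #10. These values were 26.4-, 14.7-, 9.18-, 4.49- and 3.49-fold those of resistant cells in #4, #6, #3, #7 and #10, and 1.29-fold in #9. The log2 fold change was 2.69 ± 0.48 (SE; limma, adjusted p = 0.00243, higher in 6 of 6 lines), and the call was lost without line #3, #4, #6 or #10 (adjusted p = 0.0247, 0.0176, 0.0161 and 0.0104) or when the 2 states were fitted alone (adjusted p = 0.0247, or 0.0227 with the block). Cda and Slc29a1 were the 2 members higher in all 6 lines, where 7.77% of all genes tested were.

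Tk1 was at 5379 (#3), 4435 (#4), 3990 (#6), 4903 (#7), 4364 (#9) and 1993 (#10) in P12 cells. All but line #10 lay above every resistant value, yet the log2 fold change of 0.88 ± 0.24 missed the threshold (SE; limma, adjusted p = 0.0357). Rrm2 stayed low in most lines, at 2436 (#3), 2426 (#4), 2595 (#6), 4283 (#7), 6181 (#9) and 1473 (#10), with a log2 fold change from resistant cells of -0.35 (limma, adjusted p = 0.683). Dck, with a P12 range of 1104 to 1498 and a median of 1215, had a log2 fold change of -0.57 (limma, adjusted p = 0.273). The log2 fold changes of Dctd, Slc29a2, Samhd1, Rrm1 and Tyms were 0.47, 0.35, -0.33, -0.52 and -0.11, and their adjusted p-values were between 0.336 and 0.903.

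P12 and parental cells were compared to see which members returned to their starting level. No member was called by limma, where 0.114% of all genes tested were called (22 genes), nor with the cell line as a block, where 0.523% were (101 genes). At an unadjusted p below 0.05, 15.3% of genes and 2 of 10 members (Slc29a1 and Rrm2) passed. The members' median log2 fold change was -0.36, against 0.029 for all genes tested. Rrm2 in P12 cells was 5.33-, 5.22-, 3.86-, 1.51- and 9.16-fold below the parental level in #3, #4, #6, #7 and #10, and was 1.06-fold above it in #9. Its log2 fold change of -1.74 ± 0.39 did not pass (SE; limma, adjusted p = 0.045, lower in 5 of 6 lines). Slc29a1 went the other way and was 1.37- to 6.12-fold above the parental level in 6 of 6 lines, where 6.46% of all genes tested were higher in every line. Its log2 fold change was 1.16 ± 0.48 (SE; limma, adjusted p = 0.258), and line #7, with 2.61 on the log2 scale, was highest. Dck was lower than in parental cells in 6 of 6 lines, by 1.05- to 1.80-fold, where 6.96% of all genes tested were lower in every line. Cda was above its parental level in 4 lines, by 1.67- to 3.71-fold, and below it in #4 and #6, by 1.81- and 3.70-fold, with a log2 fold change of 0.45 ± 0.66 (SE; limma, adjusted p = 0.776). Tk1, Rrm1 and Tyms were all lowest in line #10, at -1.48, -1.38 and -1.46 on the log2 scale. So were Rrm2, Samhd1, Dck and Slc29a1, at -3.19, -1.03, -0.85 and 0.45. Cda and Dctd were lowest in #6 and Slc29a2 in #4. In line #10, 22 of 22 genes of the proliferation list were also lower than in parental cells and their mean was -1.32. The part of proliferation in these values was not tested.

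**Figure D3:**
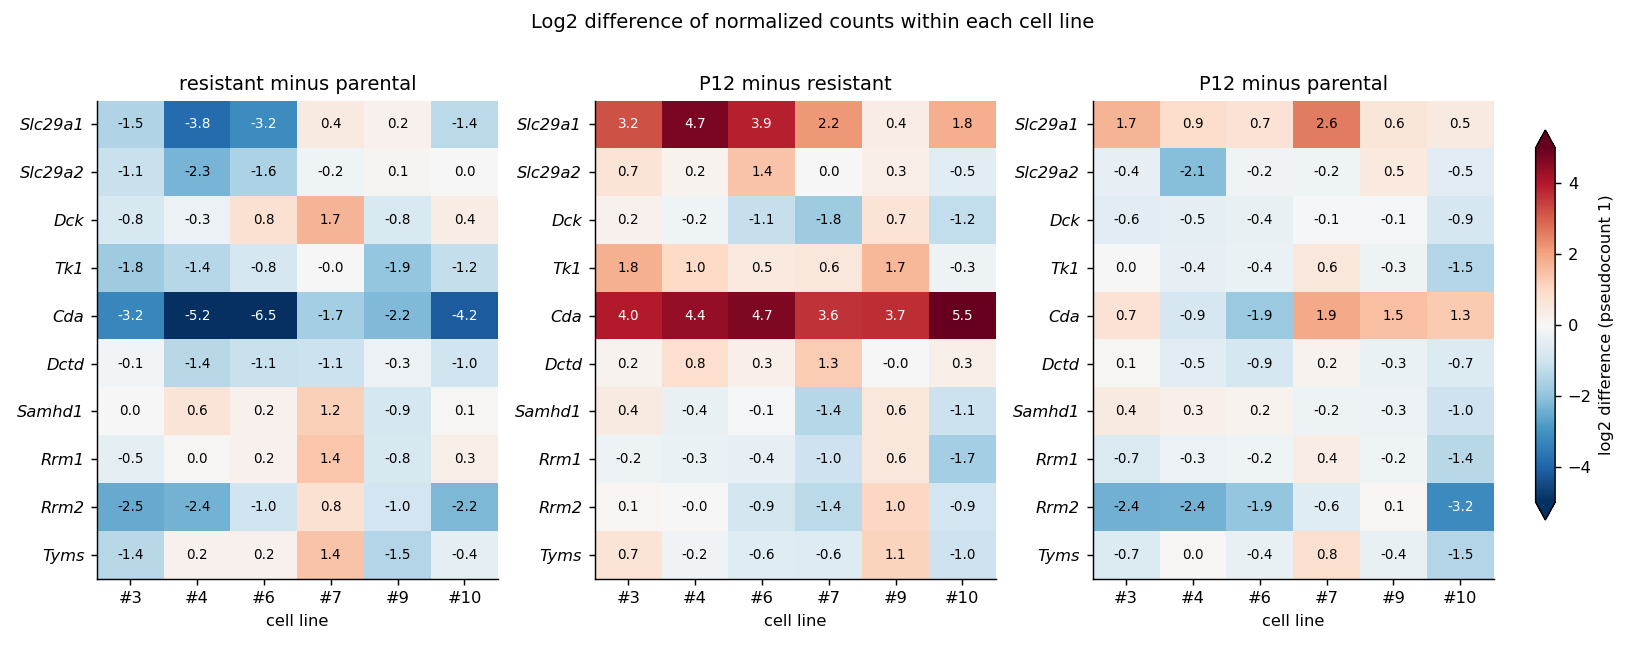
Log2 difference of normalized counts (colour and printed value, pseudocount of 1) for the 10 genes (rows) in each of the 6 lines (columns), for resistant minus parental, P12 minus resistant and P12 minus parental cells; the colour scale ends at -5 and 5. Cda is below 0 in all 6 lines on the left, from -1.71 to -6.54 (line #6, or -5.64 with its resistant value at the floor), and above 0 in all 6 lines in the middle, from 3.60 to 5.46.

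**Figure D4:**
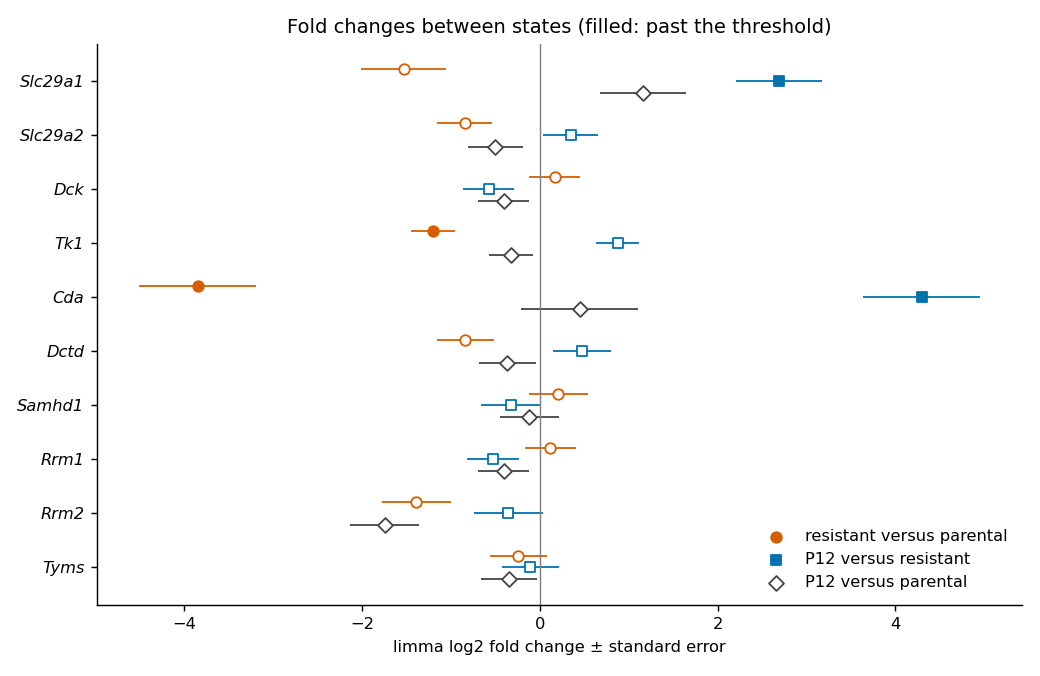
limma log2 fold changes with standard errors (x axis) of the 10 genes (y axis) in 3 comparisons, with filled symbols for genes past the threshold. Cda and Tk1 are filled in resistant versus parental, Cda and Slc29a1 in P12 versus resistant, and none in P12 versus parental, where Rrm2 at -1.74 is lowest.

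P5 cells of lines #3, #7 and #9 were compared with each other state, to place the earlier time after withdrawal. Cda was at 64.6, 462 and 174 normalized counts in #3, #7 and #9. Slc29a1 was at 19371, 26406 and 14231, and Tk1 at 5148, 4538 and 3304. Each was above the resistant value of its line, so 3 of 10 members were higher than in resistant cells in all 3 lines, where 15.0% of all genes tested were. By the threshold, 0 of 10 members were called against resistant cells, where 0.378% of all genes were (limma). At an unadjusted p below 0.05, 15.4% of genes and 4 of 10 members (Cda, Dctd, Slc29a1 and Tk1) passed. Cda was close to the threshold, with a log2 fold change of 4.23 ± 0.81 (SE; limma, adjusted p = 0.0105), and blocked on the cell line it was called at 3.96 (adjusted p = 0.0072), where 0.611% of all genes were. Slc29a1 had a log2 fold change of 3.03 ± 0.59 (SE; limma, adjusted p = 0.0119) and Tk1 of 0.97 (adjusted p = 0.102). These folds set 3 lines in P5 against 6 resistant lines. Within the 3 shared lines, Slc29a1 was higher by 3.41 in #3, 2.38 in #7 and 0.45 in #9 on the log2 scale, a mean of 2.08, and the fit of the 2 states with the block gave an adjusted p of 0.368 (limma). For Cda the differences were 3.43, 3.81 and 2.64 with a mean of 3.29, and the call made with the block in the fit of 4 states was lost in the fits of the 2 states (limma, adjusted p = 0.137, and 0.204 with the block). Against parental cells 0 of 10 members were called, where 0.0259% of all genes were, with Rrm2 at a log2 fold change of -1.28 and Slc29a1 at 1.49 (limma, adjusted p = 0.383 and 0.415). Between P12 and P5 cells limma called 0 of 19300 genes, and 130 genes passed an unadjusted p below 0.05, a share of 0.674%. With the cell line as a block, 0 genes were called too. The fit without the block does not use the pairing, and P12 and P5 deviations correlated within lines at r of 0.732 to 0.806. Its low share therefore does not show that the 2 states are alike. Within the 3 lines, Rrm2 differed between P12 and P5 by -0.04 to 0.05 on the log2 scale. Slc29a1 was lower at P12 by 0.09 to 0.22 on that scale, and Cda ranged from -0.22 to 1.06.

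The balance of activating and inactivating RNA was described by log2 Dck minus log2 Cda in each sample. It was 3.64 ± 1.03 (SD, n = 6) in parental, 7.65 ± 1.73 (SD, n = 6) in resistant, 3.09 ± 1.51 (SD, n = 3) in P5 and 2.78 ± 1.11 (SD, n = 6) in P12 cells. Within lines it was higher in resistant than in parental cells by 1.44 to 7.31, in 6 of 6 lines. The upper end is line #6, whose resistant Cda value was under its floor, and with that value raised to the floor the difference was 6.405 and the resistant mean 7.502. From resistant to P12 cells the mean difference was -4.87, or -4.72 at the floor, and it was lower in 6 of 6 lines. Dck itself was not called in any comparison. These are differences of RNA levels and not of enzyme activity, and they were given no test.

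**Figure D5:**
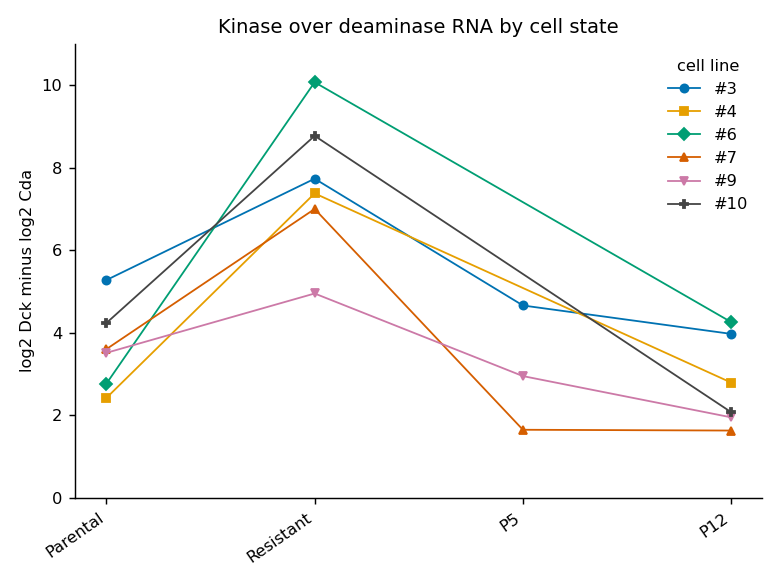
Log2 normalized count of Dck minus that of Cda (y axis, pseudocount of 1) by state, with 1 point per line and state. Resistant cells lie between 4.95 and 10.1, each above the parental and the P12 value of its line; the highest point, line #6, has Cda under its floor and would lie at 9.17 with Cda at the floor.

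The variance of each member was divided between cell state, cell line and a remainder. The shares are of sums of squares, were not adjusted for the number of groups and were not tested. There are more lines than states, so chance alone gives lines a larger share than states, and the remainder the largest share. Over the 18 parental, resistant and P12 samples, differences between states made up 77.2% of the log2 variance of Cda, 62.7% of Slc29a1, 60.9% of Tk1 and 56.8% of Rrm2. Differences between lines exceeded those between states for Dctd (54.3%, against 29.9% for state), Samhd1 (46.1% against 6.58%), Rrm1 (36.1% against 17.1%) and Tyms (22.8% against 6.55%). For Dck the line share was slightly above the state share, at 20.3% and 19.5%, and for Slc29a2 it was below, at 20.4% and 29.7%. The remainder, which belongs to neither line nor state, was the largest share for Tyms (70.7%), Dck (60.1%), Slc29a2 (49.9%), Samhd1 (47.4%) and Rrm1 (46.8%). For Dctd, lines #3 and #9 had the highest values in the resistant and P12 states, and in P5, which has only #7 besides. In parental cells #9 (2503) was highest, but #10 (2135) lay above #3 (1976).

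Levels of different genes were compared per kilobase of transcript, with the length of the longest principal transcript in GENCODE M21. In parental cells the order of mean normalized counts per kilobase was Rrm2 (4669), Tk1 (3531), Slc29a1 (3298), Rrm1 (2232), Dctd (879), Samhd1 (844), Tyms (802), Dck (552), Slc29a2 (325) and Cda (181). The ranges over lines of neighbours in this order overlapped, except for Rrm1 above Dctd. Resistant cells had Rrm1 (2456) first and Rrm2 (2015) second, and Cda, at 15.3, lay below Slc29a2, at 197, with no overlap. In P12 cells Slc29a1 (7223) was first, above Tk1 (2901) in 6 of 6 lines and without overlap, and Cda (266) was level with Slc29a2 (243), with overlapping ranges.

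The genes whose log2 values were most like those of a member over the 21 samples were named by Pearson's r, as a description, since samples share lines and states. Cda was followed by Enpp1 (r = 0.913) and Arhgef40 (r = 0.906), Slc29a1 by Nav3 (r = 0.903) and Lrig1 (r = 0.890), and Dck by Rpp30 (r = 0.884) and Nsd2 (r = 0.856). The nearest genes of Tyms were Birc5 (r = 0.909) and Tuba1b (r = 0.903), of Samhd1 Racgap1 (r = 0.911) and Dnajc9 (r = 0.890), of Rrm1 Tubb6 (r = 0.888) and Rangap1 (r = 0.883), and of Rrm2 Zmynd19 (r = 0.871) and Ect2 (r = 0.865). Birc5, Racgap1 and Ect2 act in cell division. Tk1 was nearest to Pgm2l1 and Cdkn2aipnl (r = 0.853 for both), Dctd to Gm38190 (r = 0.885) and Setdb1 (r = 0.882), and Slc29a2 to Gm22884 (r = 0.880) and Chml (r = 0.872). Gm22884 had a mean of only 6.94 normalized counts, little above the floors of 2.31 to 4.07, so its r is imprecise. Among the members, Cda with Slc29a1 and Rrm1 with Tyms had the highest r, 0.832 for both, and Dctd with Rrm1 the lowest, -0.451.

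The wider nucleotide pathway was read from 7 further lists. In resistant versus parental cells, 1 of 2 tested other nucleoside transporters, 0 of 16 other salvage and nucleotide kinases, 0 of 20 other breakdown genes, 0 of 10 other thymidylate, folate and reductase genes, 0 of 5 genes of de novo pyrimidine synthesis and 2 of 15 of purine synthesis were called, all lower, where 5.3% of all genes tested were called and 2.73% were called lower. The transporter was Slc29a4, which ranged from 1.32 to 118 normalized counts in parental cells, where line #9 was under the floor, and was at or under the floor in 5 of 6 resistant samples (limma, adjusted p = 0.00132). It stayed there in P12 cells, where the highest value was 0.831 (limma, adjusted p = 0.00398 against parental cells). The purine genes were both adenylosuccinate synthetases. Adss ranged from 4807 to 7634 in parental and from 1508 to 3639 in resistant cells, with a log2 fold change of -1.24 ± 0.21 (SE; limma, adjusted p = 0.000892). Adssl1 had a median of 241 in parental and of 9.68 in resistant cells, with a log2 fold change of -4.20 ± 0.77 (SE; limma, adjusted p = 0.00141). Its ranges overlapped, at 122 to 812 in parental and 3.19 to 127 in resistant cells. Resistant values of 5.57 (#3), 4.88 (#4) and 3.19 (#10) lay little above floors of 3.1, 4.07 and 2.66. Folds of Adssl1 against resistant cells are therefore imprecise in these lines. The median log2 fold change of the 15 purine genes was -0.64 and 14 of them lay below 0, and that of the 20 breakdown genes was -0.41 with 17 below 0, against a median of -0.0049 for all genes tested.

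From resistant to P12 cells, Adssl1 rose (log2 fold change 4.07, adjusted p = 0.00361), as did the uridine phosphorylase Upp1 (4.01, adjusted p = 0.00407), and the CTP synthase Ctps fell (-1.15, adjusted p = 0.00407, limma for all 3). The latter 2 were named after their values were seen. No other gene of these lists was called in that comparison, except Ctps2 when the cell line was blocked (log2 fold change 1.20). The targets of decitabine were measured too: Dnmt1, the maintenance methyltransferase, had medians of 10540 in parental, 8274 in resistant and 9063 in P12 cells, and its log2 fold change from parental to resistant cells was -0.28 (limma, adjusted p = 0.555). The de novo methyltransferases Dnmt3a and Dnmt3b had log2 fold changes of 0.13 and 0.31 and Uhrf1, which guides Dnmt1 to replicating DNA, of -0.43 (limma, adjusted p = 0.782, 0.848 and 0.356). Dnmt3b split the lines, with log2 differences of 0.68 to 1.62 in #3, #4, #6 and #9, and of -2.16 in #7 and -0.59 in #10. Those of Dnmt3a ran from -1.17 in #10 to 1.53 in #9. None of these 4 genes was called in any of the 6 comparisons by limma.

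Some members share their locus with other annotated genes. Tk1 (chr11:117815526-117826092, minus strand) is overlapped over 10567 bases by Gm20708 on the opposite strand, which had a mean of 23.3 normalized counts, and over 169 bases by Afmid. Rrm1 (chr7:102441695-102469771, plus strand) overlaps Gm45399 on the same strand, with a mean of 13.9. Tyms has an annotated processed pseudogene, Tyms-ps, on chromosome 10, and how alike their sequences are and whether reads were shared between them was not tested. Cda lies at chr4:138338424-138367992 on the minus strand, Slc29a1 at chr17:45585200-45599606 on the minus strand, Rrm2 at chr12:24708241-24714146 on the plus strand and Dck at chr5:88764996-88783281 on the plus strand (GENCODE M21, GRCm38).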

How the data were processed

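RNA of 21 samples from 6 murine PDAC lines in 4 states was analysed, grouped by the sample labels, with the line number as replicate. Per the labels, RNA was isolated with a Maxwell RSC kit and libraries were made with the TruSeq Stranded mRNA kit. The deposited table holds signal values: gene-level counts that the authors estimated with Salmon 0.12 on mm10, summed to genes with TXImport and normalized in DESeq2 1.18, and CASAVA 2.17 or bcl2fastq 2.19 is given for base calls. The samples of each sequencer model are not given in the sources used here, so no comparison within sequencing batches was made. Whole reads could not be recovered, since 58.3% to 73.9% of low values per sample fell on multiples of 1 read (within 0.05 of a step), so no count model was run. Depth was estimated from that step.

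Genes at 10 or more in at least 3 samples (19300 of 34478) were tested on log2(value + 1), which understates changes of low genes, with limma 3.58.1 in R 4.3.3: 1 fit of 4 states, eBayes with a trend, and Benjamini-Hochberg adjustment over all genes tested, with the thresholds of the study (adjusted p below 0.01, log2 fold change beyond 1). P-values are two-sided. The cell line as a block was an alternative. The line numbers pair the samples because samples with 1 number come from 1 mouse tumor, and deviations from the state means correlated within lines at r of 0.159 to 0.352 (resistant and parental), 0.337 to 0.52 (P12 and resistant) and 0.008 to 0.51 (P12 and parental). For P5 the ranges were 0.495 to 0.537 (with resistant), -0.06 to 0.465 (with parental) and 0.732 to 0.806 (with P12). The limma fit without the block was tested on simulated data for resistant versus parental cells, with samples drawn independently and no effect of line. The other alternatives were pseudocounts, low-value filters, upper quartile rescaling, no trend, other thresholds, fits of 2 states and leaving out each line.

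The members and gene lists were chosen with earlier results of these data known. One further engineered allele of the mice and one marker gene are not reported here. Named were the 10 members, list genes called in resistant versus parental cells (up to 2 rises and 2 falls per list), the 4 methylation genes, Mki67, and for each member the 2 genes with the highest Pearson's r. Python 3.11.15, numpy 2.4.6, pandas 2.3.3 and matplotlib 3.10.9 were used.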

Additional observations from a re-analysis of the deposited data

Results flagged for a closer look

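In 3 of 30 groups of 6 lines, each a member in 1 state, a single line stood far from the others by Dixon's test, which chance does in about 1 in 20 groups. Tk1 in parental cells of line #7 was at 3323 normalized counts, below the other lines at 5089 to 5968. Tyms in the same sample was at 1286, below the others at 2608 to 2996. Tk1 in P12 cells of line #10 was at 1993, below the others at 3990 to 5379. The proliferation list was higher in resistant than in parental cells in line #7 and lower in P12 than in parental cells in line #10, by means of 1.02 and 1.32 on the log2 scale, and its part in the 3 values was not tested.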

How the results depend on the processing

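Of 595 values of members under 17 alternatives, 566 kept their direction and their side of the threshold, 12 lost a call, 11 gained one and 6 changed sign. The number of members called in resistant versus parental cells went from 2 to 4 at an adjusted p below 0.05 (Slc29a1 and Rrm2 added), to 0 in a fit of the 2 states with the cell line as a block, added after seeing the data (adjusted p = 0.0103 for Cda and 0.02 for Tk1, limma), and to 1 to 3 with single lines left out (3 without #7, where Rrm2 was added). In P12 versus resistant cells it went to 1 (Cda) in fits of the 2 states without and with the block and to 1 to 2 with single lines left out. In P12 versus parental cells it was 1 at an adjusted p below 0.05 (Rrm2). In P5 versus resistant cells it was 1 for genes with a mean of at least 100 (Slc29a1), 1 with upper quartile rescaling (Cda), 1 with the block (Cda), 2 at an adjusted p below 0.05, and 0 to 1 with single lines left out (Slc29a1 without #9). The cause of these shifts was not tested. With the cell line as a replicate block in the fit of 4 states, the pairing changed no other call of a member. Cda was called in P12 versus resistant cells under all 17 alternatives and in resistant versus parental cells under all but the fit of the 2 states with the block, with log2 fold changes of -4.28 to -3.31 over lines left out.

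Changes of sign concerned differences near 0 that were not called and arose on leaving out a line. In resistant versus parental cells, Dck ranged from -0.14 (without #7) to 0.36, Rrm1 from -0.14 (without #7) to 0.30 and Tyms from -0.58 to 0.0051 (without #9). In P12 versus resistant cells, Tyms ranged from -0.35 to 0.0765 (without #10) and was at 0.001 without #7, and in P12 versus parental cells Samhd1 ranged from -0.23 to 0.0683 (without #10). Of all genes tested, 450 to 2190 were called in resistant versus parental cells under the alternatives (1023 as reported), 103 to 947 in P12 versus resistant (412), 3 or more in P12 versus parental (22, and 101 with the block) and 0 to 376 in P5 versus resistant cells (73). The mean of log2 Dck minus log2 Cda kept its sign and stayed within 1 SD under each of its alternatives. Depth limits Cda in resistant cells, where 1 of 6 values was under the floor of 3 reads, so its fold in line #6 is uncertain. Values of #3, #4 and #10, at 5.09, 6.64 and 5.21, lay little above floors of 3.1, 4.07 and 2.66. Folds of Cda and differences of log2 Dck minus log2 Cda in these lines are therefore imprecise too.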
